A study of Mus musculus with 49 samples.

Results

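The comparison described here set fibroblasts that received OCT4, KLF4 and MYC (together OKM) with geminin (GMNN) against fibroblasts that received OKM with SOX2. It rests on 4 of the 49 arrays of the series, 2 labelled OKM+GMNN and 2 labelled OKM+SOX2, chosen by their labels and compared over all 11304 genes with a value on all 8 arrays normalized together. The series as a whole looked for factors that add to, or stand in for, the classical reprogramming factors in mouse cells. Here the question was how the transcriptome differed when geminin took the place of SOX2. All arrays of the comparison came from skin fibroblasts (MEF) taken at D13.5 from female OGXICR mice. The skin came from limbs and tails, it was treated with collagenase, and the epidermis was taken off before the fibroblasts were strained. Factors were carried by a doxycycline-inducible lentiviral system, so every group carried virus and the 3 OKM factors. Beside OKM+GMNN and OKM+SOX2, the same normalization held 2 arrays each labelled OKM+SOX1 and OKM+SOX3, which shared the estimate of the spread. The labels give no time of harvest for these cells and do not say whether 2 arrays of a group came from separate cultures, so p-values measure the spread between these samples, which may be technical.

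Geminin is a small nuclear protein that binds CDT1 and keeps replication origins from being licensed again in the same cell cycle. It also binds chromatin and patterning proteins, among them subunits of the SWI/SNF remodelling complex, Polycomb proteins and homeodomain factors, and is known for holding early embryonic cells in an uncommitted state. SOX2 is an HMG-box factor that binds DNA next to OCT4 at many genes of pluripotent cells. SOX1 and SOX3 are its closest relatives.

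The values were probe intensities on a linear scale from the Cy5 dye. The lower quartile of intensity lay between 173.9 and 180 on the 8 arrays and the median between 438.9 and 450.4, so values under about 100 belong to the dimmest genes, for which no background level was given. Differences are on the log2(intensity + 32) scale, OKM+GMNN minus OKM+SOX2, and folds derived from them understate the change of dim genes. The introduced factors could not be used to check the labels, since Gmnn, Sox2, Pou5f1 and Myc had no value on these arrays. Klf4 had 385.8 and 488.7 on the OKM+GMNN arrays, against 431.5 and 537.3 on the OKM+SOX2 arrays. Sox1 had 90.1 and 74.2 on the arrays labelled OKM+SOX1, below its 160.1 and 125.2 on the OKM+GMNN arrays. Where these probes lie relative to the introduced sequences is not given in the sources used here. Of the fibroblast markers, Dcn (decorin) had 47619 and 46747 on the OKM+GMNN arrays, against 40090 and 33399 on the OKM+SOX2 arrays, and Col1a2 had 6196 and 7256, against 7897 and 7570. Thy1 and Col1a1 had no value.

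One array stood apart before any test. OKM+SOX2 replicate 1 correlated with the 7 other arrays at r from 0.891 to 0.906 over probes, while the other arrays correlated among themselves at 0.949 or more, and the 2 OKM+GMNN arrays at 0.991. On that array 261 genes lay over 2 log2 units below all 7 others, with a median intensity of 95.4 against 2351 on the others. Where leaving it out changed the number of called genes in the whole comparison, or in a list or family named below, that number is given too.

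**Figure D1:**
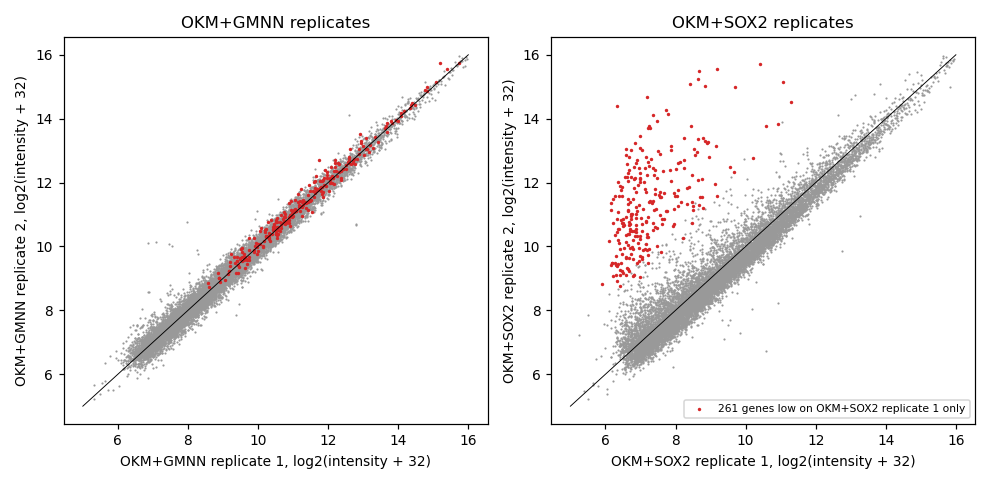
Each point is a gene, with log2(intensity + 32) on replicate 1 along x and on replicate 2 along y, for OKM+GMNN (left) and OKM+SOX2 (right). The 261 red genes, low on OKM+SOX2 replicate 1 alone, lie on the diagonal between the OKM+GMNN arrays and far above it between the OKM+SOX2 arrays.

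Genes of macrophages and of the differentiating epidermis were higher with geminin than with SOX2, and genes of the interferon response were lower. limma called 228 of 11304 genes at an adjusted p below 0.05, which is 2.02% of those tested. Of these, 143 were higher in OKM+GMNN (1.27%) and 85 lower (0.752%). At least 2-fold differences were seen for 136 of the higher and 77 of the lower genes. The median difference over all genes was -0.05. The arrays of the 2 groups did not overlap for any called gene, beside 45.7% of all genes, 17.2% higher and 28.4% lower. Without OKM+SOX2 replicate 1, 237 genes passed, 159 higher and 78 lower. Since the groups did not overlap for any of the 228, leaving out an array could not change the direction of any of them. The count moved more with the other arrays: 29 genes passed without OKM+GMNN replicate 1, 40 without OKM+GMNN replicate 2 and 1061 without OKM+SOX2 replicate 2.

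The largest rises were in genes of macrophages. Clec10a, a galactose-binding C-type lectin of macrophages and dendritic cells, had 3122 and 3525 on the OKM+GMNN arrays, against 80.2 and 76.1 on the OKM+SOX2 arrays. Its log2 difference of 4.93 (95% interval 4.22 to 5.63, adjusted p = 0.000246) was the largest of all genes called and corresponds to 30.4-fold. Marco, a scavenger receptor, had 2366 and 2251 with geminin, against 57.3 and 98.4 with SOX2 (log2 difference 4.44, adjusted p = 0.00014). C1qa, a chain of the first complement component, had 5699 and 5193, against 371.3 and 321.8 (3.86, adjusted p = 0.00014). In each of these the dimmer OKM+GMNN array was over 10 times as bright as the brighter OKM+SOX2 array. Pf4, a chemokine stored in platelets and also made by macrophages, had 1906 and 1400 with geminin, against 135.4 and 66.8 with SOX2 (3.70). Csf1r, the receptor through which macrophages receive the survival signal of colony stimulating factor, had 837.6 and 913.7, against 67.3 and 43.6 (3.39, adjusted p = 0.000246). The low-affinity IgG receptor Fcgr3 had 2388 and 2812, against 219.5 and 211.6, and its signalling chain Fcer1g had 3171 and 2721, against 433.4 and 404.9. Both groups were tight for these receptors and lay far apart. Cd68, a lysosomal glycoprotein of phagocytes, had 2270 and 2364 with geminin, against 43.0 and 504.4 with SOX2, and the lower SOX2 value is on the array that stood apart. Its adjusted p was 0.043 on all arrays and 0.00035 without that array.

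Of the list of 15 macrophage markers, 10 had a value and 8 of them rose, with none falling. Their median difference was 2.71, beside -0.05 over all genes, and 8 also rose without OKM+SOX2 replicate 1. The summed level of the 10 was 21380 and 20970 on the OKM+GMNN arrays, against 2812 and 2844 on the OKM+SOX2 arrays. The 2 that did not pass were Ptprc, the leukocyte surface phosphatase CD45, with 193.5 and 192.4 against 88.0 and 185.8, and Cd14, a lipopolysaccharide coreceptor, with 567.1 and 520.8 against 406 and 346.1. Adgre1, Lyz2, C1qb, Tyrobp and Cx3cr1 had no value. This list, like the others here, was chosen with earlier results of these data known, so its counts are no independent support. In bulk RNA, more cells of a type and more RNA per cell cannot be told apart. The same genes were bright in fibroblasts with empty vector and no factors. In a separate normalization, the same 10 genes summed to 9539, 8937 and 2541 on the 3 arrays with OKM and empty vector (OKM+EV), against 138900 and 159400 on the 2 arrays of fibroblasts with empty vector alone (MEF2 EV). There, 8 of the 10 were lower in OKM+EV, where 2.48% of all 11998 genes tested were called lower, and Csf1r had 178.8, 148.8 and 183.6 in OKM+EV, against 12385 and 9843 in MEF2 EV. That comparison turned on single arrays, with 666 genes called on all 5 (5.55%), 433 without OKM+EV replicate 1, 235 without replicate 2, 5580 without replicate 3, 2 without MEF2 EV replicate 2 and none without MEF2 EV replicate 1, where 1425 genes had an unadjusted p below 0.05 by limma. Not all fibroblasts without factors were bright for these markers. In uninfected MEF, from another normalization with array medians of 295.9 to 296.2, Csf1r averaged 304.6 and Fcgr3 301.7. C1qa, Cd68 and Fcer1g averaged 652.4, 650.3 and 632.8 there. Levels cannot be set across normalizations, and the part of macrophage content in the difference between geminin and SOX2 was not tested.

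**Figure D2:**
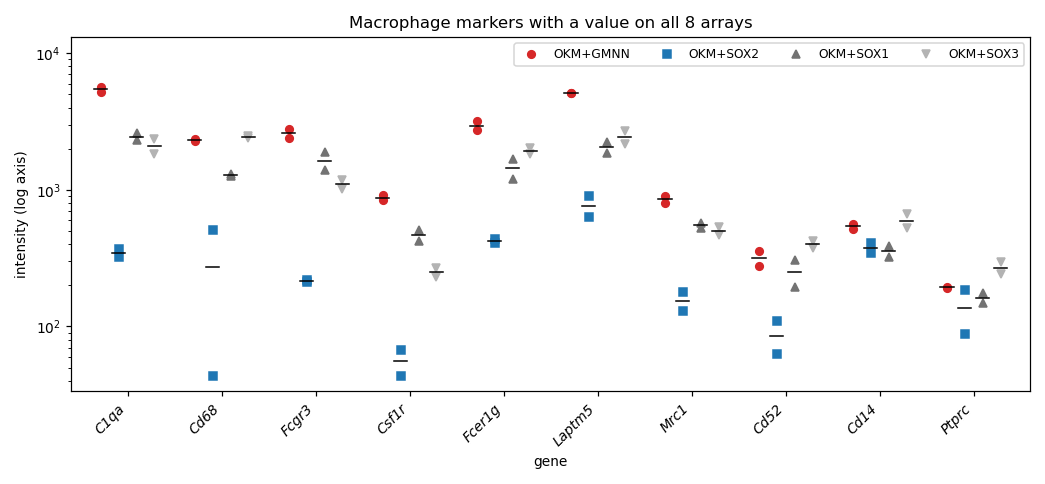
Intensity (log axis) of the 10 measured macrophage markers on each array, ordered by the log2 difference, with the group mean as a bar. The 2 OKM+GMNN arrays lie above the 2 OKM+SOX2 arrays for all 10, and Cd68 and Ptprc have the widest gap between the OKM+SOX2 arrays.

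Further genes of myeloid and other blood cells rose. Adam8, a membrane metalloprotease of myeloid cells, had 6240 and 6077 with geminin, against 882.5 and 645 with SOX2 (log2 difference 2.98). Nckap1l, the blood-cell subunit of the WAVE actin regulator, had 1107 and 1293, against 172.3 and 115.6 (2.82), and Selplg, the selectin ligand PSGL-1, had 642.9 and 548.4, against 60.8 and 58.6 (2.77). The tetraspanin Cd53 (2.42), the actin-binding coronin Coro1a (2.38), the small GTPase Rac2 (2.03), the hexokinase Hk3 (2.24), the iron transporter Slc11a1 (2.01), the scavenger receptor Msr1 (1.71), the kinase Btk (1.36), the phosphatase Ptpn6 (1.39), the costimulatory ligand Cd86 (1.43), the pore-forming Mpeg1 (1.16) and the arginase Arg1 (1.65) also rose. Of these Cd86 did not pass without OKM+SOX2 replicate 1 (adjusted p = 0.0766). They were named after their values were seen. Grouped by symbol, 3 of 4 Fc receptor genes rose (Fcgr3, Fcer1g and Fcgr4, not Fcer2a), as did both C1q chains measured. Of 8 CC chemokines, Ccl3 (438.98 against 68.2 on average), Ccl4 (520.1 against 103.9) and Ccl6 (414.6 against 81.2) rose, each attracting leukocytes. Of 11 CXC chemokines measured, Pf4 alone passed.

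Promoter sequences of this group are shown for genes whose promoters hold the core of the element bound by PU.1, the ETS factor that marks the macrophage lineage. The windows run from 250 bases before to 50 bases after the transcript start in RefSeq (GRCm38.p6), the capitals mark GAGGAA on either strand, and the letters were chosen after the calls were seen.
Marco (chr1:120504975-120505274, minus strand): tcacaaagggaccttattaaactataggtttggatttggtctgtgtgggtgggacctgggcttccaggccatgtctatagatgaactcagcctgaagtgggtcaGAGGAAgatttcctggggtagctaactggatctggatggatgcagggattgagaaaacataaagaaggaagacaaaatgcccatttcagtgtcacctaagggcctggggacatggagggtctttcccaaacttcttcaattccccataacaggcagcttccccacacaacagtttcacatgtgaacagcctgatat
Laptm5 (chr4:130913066-130913365, plus strand): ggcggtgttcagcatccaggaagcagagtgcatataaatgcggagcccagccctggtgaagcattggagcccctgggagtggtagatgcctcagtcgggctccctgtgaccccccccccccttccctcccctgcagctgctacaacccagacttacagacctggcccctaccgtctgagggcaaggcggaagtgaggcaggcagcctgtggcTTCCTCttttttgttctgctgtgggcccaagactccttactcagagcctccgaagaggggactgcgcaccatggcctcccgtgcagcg
Of the called genes, 96 higher and 62 lower ones had such a window. GAGGAA stood in 43.8% of the windows of the higher genes and in 25.8% of the windows of the lower genes, beside 30.4% of the 9054 windows of all genes tested. Among the macrophage markers called, 4 of the 5 with a window held it. The median GC content was 53.3% in windows of higher genes, 55% in those of lower genes and 60% over all. A match is a string of letters and no evidence of binding.

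Epidermal genes formed the other large group that was higher with geminin. Krt14, the type I keratin of basal keratinocytes, had 44968 and 45493 on the OKM+GMNN arrays, against 14844 and 14098 on the OKM+SOX2 arrays. That is 3.12-fold (log2 difference 1.64, 95% interval 1.35 to 1.94, adjusted p = 0.000706). Krt17, a keratin of hair follicles and wounded skin, had 41266 and 34062, against 13535 and 10894 (1.62, adjusted p = 0.00355). Both keratins lay among the brighter genes and in neither did the groups come near each other. Of 24 measured genes of the keratinocyte list, 10 rose and none fell, and the median was 0.98 beside -0.05 over all genes. They were Krt14, Krt17, Krt1, Krt16, Sfn, Lor, Sprr1a, Sprr1b, Cnfn and Lce1b, and without OKM+SOX2 replicate 1 the list had 11 rises. For Cnfn a second probe gave -0.14 where the brighter one gave 1.53. The summed level of the 24 was 137600 and 135300 with geminin, against 53690 and 53350 with SOX2.

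The other 14 measured genes of the list did not pass. Krt5, the type II partner of Krt14 in basal cells, had 254.6 and 220.7 with geminin, against 378.3 and 255.6 with SOX2. Trp63, the transcription factor p63 of basal keratinocytes, had 258.5 and 217.1, against 303.7 and 287.4. Krt10, which pairs with Krt1 in the suprabasal layers, had 881.8 and 1057, against 869.3 and 793.6. None of these 3 passed the test, and Dsg3 had no value. Together with Krt14 and Krt1, these genes make up a shorter list of 6 keratinocyte markers. Of its 5 measured members 2 rose and none fell, with a median of 0.21, well below that of the longer list. Lgals7, a galectin of stratified epithelia, had 8692 and 8451, against 95.4 and 4366, so its difference rests in part on the array that stood apart. Its adjusted p was 0.271 on all arrays and 0.0272 without that array.

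**Figure D3:**
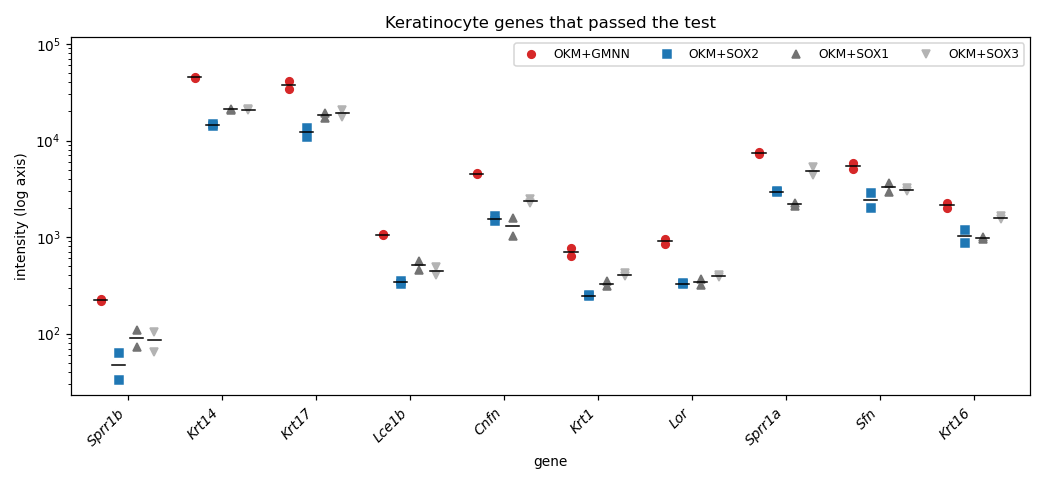
Intensity (log axis) of the 10 keratinocyte genes that passed, on each array, ordered by the log2 difference, with the group mean as a bar. Both OKM+GMNN arrays lie above both OKM+SOX2 arrays for each gene, and above both OKM+SOX1 and both OKM+SOX3 arrays.

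Among small proline-rich proteins, which are cross-linked into the cornified envelope, 5 of 10 rose and none fell. Sprr2d had 916.1 and 1261 with geminin, against 99.7 and 77.9 with SOX2 (log2 difference 3.20, adjusted p = 0.00352), the largest rise outside the myeloid genes. Sprr2i (1.86), Sprr1b (1.70), Sprr1a (1.30) and Sprr3 (0.95) were the others, of which Sprr3 did not pass without OKM+SOX2 replicate 1 (4 of 10, adjusted p = 0.0853), and near-identical Sprr2 copies may share probe signal. Of 11 late cornified envelope genes, Lce1b (1.56) and Lce1a2 (0.99) rose, and without OKM+SOX2 replicate 1 Lce1b alone (adjusted p = 0.0879 for Lce1a2). Of 9 kallikreins, the serine proteases that loosen the outer epidermis, Klk7 (2.21), Klk5 (1.68) and Klk8 (1.07) rose. Of 11 genes of desmosomes and plakins, Dsg1a (1.88), Pkp3 (1.40) and the envoplakin gene Evpl rose. Of 32 keratins, 6 rose (median 0.22), with Krt90 (3158 and 2242, against 544.3 and 293.2) the furthest at 2.64. Families were grouped by symbol after the calls were seen. Further epidermal genes were Asprv1, an aspartic protease of the granular layer (6411 and 6464, against 1715 and 1808), Sbsn (5330 and 5876, against 1703 and 1570), Krtdap (3707 and 3818, against 1238 and 1031), Crct1 (1.99), Kprp (2.42), Tchh (1.70) and Slurp1 (1.65). The promoter window of Sprr2d held the AP-1 element TGANTCA, shown in capitals, which stood in 19.8% of windows of the higher genes and 8.06% of those of the lower genes, beside 6.9% over all. This motif too was chosen after the calls were seen.
Sprr2d (chr3:92338890-92339189, plus strand): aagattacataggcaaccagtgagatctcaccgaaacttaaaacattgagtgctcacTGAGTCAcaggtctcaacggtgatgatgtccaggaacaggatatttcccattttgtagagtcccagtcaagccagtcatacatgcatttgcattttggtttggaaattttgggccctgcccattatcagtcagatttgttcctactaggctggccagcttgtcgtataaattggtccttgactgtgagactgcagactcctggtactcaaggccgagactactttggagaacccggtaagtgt
Of the 7 keratinocyte genes called that had a window, 3 held that element.

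In OKM+EV cells, 10 of 22 measured keratinocyte genes were higher than in MEF2 EV, where 3.08% of all genes tested were, and none was lower. Their summed level there was 92980, 91960 and 58400 in OKM+EV, against 8060 and 7723 in MEF2 EV. As with the macrophage markers, OKM+EV replicate 3 was the lowest of its group. Of the 143 genes that were higher with geminin, 126 had a value in that comparison. Counting genes that both passed the test there and differed at least 2-fold, 32.5% of them were higher in OKM+EV than in MEF2 EV and 35.7% lower, beside 3.15% and 2.37% of the 11090 genes with a value in both comparisons. Of the 77 genes lower with geminin that had a value, 5.19% were higher and 2.6% lower by the same count. The calls among macrophage markers were all lower in OKM+EV and those among keratinocyte genes all higher.

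Several defence genes were higher with geminin. Reg3g, an antibacterial lectin of epithelia, had 1565 and 1328 with geminin, against 251.6 and 177.1 with SOX2 (log2 difference 2.60), and Lbp, which binds lipopolysaccharide, had 3077 and 2130, against 704.9 and 515 (2.03). Lcn2, the siderophore-binding lipocalin, rose (1.23), as did Il18 (1.45), Il1a (1.19), Casp1, which cleaves the precursors of IL-1 beta and IL-18 (1.89), and the NF-kappa B subunit gene Nfkb1 (1.19). Of the 20 measured inflammatory genes, Lcn2 and Il1a rose and Il1rn, the antagonist of the IL-1 receptor, fell by 1.24. Without OKM+SOX2 replicate 1 Lcn2 alone passed, with adjusted p = 0.0795 for Il1a and 0.0756 for Il1rn.

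Interferon response genes were lower with geminin. Of 25 measured, 6 fell and none rose (Oas2, Isg15, Rtp4, Gbp3, Irf7 and Bst2), and the list's median was -0.63 beside -0.05 over all genes. Without OKM+SOX2 replicate 1, 4 fell, the adjusted p being 0.0833 for Isg15, 0.076 for Rtp4 and 0.0521 for Gbp3, while Oasl2 passed there at 0.0185. Oas2, which makes the oligoadenylate that activates RNase L, had 679.9 and 651.3 on the OKM+GMNN arrays, against 2516 and 2108 on the OKM+SOX2 arrays (-1.74, adjusted p = 0.00352). Isg15, a ubiquitin-like modifier, had 726.9 and 773.1, against 2837 and 1776 (-1.54, adjusted p = 0.0431). Irf7, the transcription factor that amplifies the response, had 4590 and 4043, against 10503 and 8000 (-1.08). Bst2, the membrane protein tetherin, had 15909 and 15818, against 34995 and 27184 (-0.96). Each of the 6 genes called on all arrays was higher on OKM+SOX2 replicate 1 than on replicate 2, and the OKM+GMNN arrays were close together. Oasl2 went the other way on the OKM+SOX2 arrays, with 1488 and 2340. Arrays of 1 label could lie far apart, as in OKM+EV in its separate normalization. There Isg15 had 208, 312 and 2920, and Oas2 had 709.8, 630.6 and 2675. The 24 list genes with a value there summed to 82050, 81200 and 130900 on these 3 arrays. How far such spread enters the difference between geminin and SOX2 was not tested. Ifit1 had 1259 and 1123, against 39.4 and 2212, and could not be placed because of the array that stood apart. Outside the list, Ifi27l2a, an interferon-induced mitochondrial protein, had 9535 and 11281, against 42066 and 41266 (0.25-fold, adjusted p = 0.0031), a fall seen against both OKM+SOX2 arrays alike. Of 7 interferon-inducible GTPases, which act against intracellular pathogens, Iigp1 (-1.55), Gbp3 (-1.23), Irgm1 (-1.15) and Igtp (-1.04) fell and 3 did not pass. Without OKM+SOX2 replicate 1, 1 of the 7 fell, Iigp1, with adjusted p = 0.0521 for Gbp3, 0.0917 for Irgm1 and 0.0595 for Igtp.

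The interferon-stimulated response element, searched as GAAA, any 2 bases and GAAA on either strand and chosen after the calls were seen, stood in 5.21% of windows of the higher genes and 12.9% of those of the lower genes, beside 3.6% over all. Of the 4 called interferon genes with a window, 3 held it. The window of Isg15 held 3 overlapping copies, in capitals.
Isg15 (chr4:156200769-156201068, minus strand): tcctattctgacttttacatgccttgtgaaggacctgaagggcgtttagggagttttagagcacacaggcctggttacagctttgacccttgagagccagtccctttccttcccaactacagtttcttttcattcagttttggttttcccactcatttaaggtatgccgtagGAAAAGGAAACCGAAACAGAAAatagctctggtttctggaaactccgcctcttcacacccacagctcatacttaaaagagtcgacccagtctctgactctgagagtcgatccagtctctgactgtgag

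The largest falls were in the transcription factors Msc and Foxd1. Msc (musculin), a basic helix-loop-helix repressor of muscle and lymphoid precursors, had 190.7 and 171.7 with geminin, against 1646 and 1526 with SOX2 (log2 difference -2.92, 95% interval -3.44 to -2.40, adjusted p = 0.000706). Foxd1, a forkhead factor of kidney stroma and retina, had 409.2 and 477.6, against 3348 and 3610 (-2.89, adjusted p = 0.000246), and was the only one of 23 measured forkhead genes to pass. For both factors the spread within a group was small beside the gap between the groups. Upp1, uridine phosphorylase, had 157.1 and 218.6, against 1325 and 1284 (-2.62), but a second probe of the gene gave 0.09. Qprt, which makes nicotinate mononucleotide from quinolinate, had 296.4 and 288.2, against 1183 and 896.1 (-1.71). Tmem35a, a chaperone of nicotinic acetylcholine receptors, had 2533 and 2509, against 8820 and 8237 (-1.74). Pmch, the precursor of melanin-concentrating hormone (81.1 and 116.9, against 471.5 and 552.7), the protein kinase Prkcb (91.5 and 95.2, against 427.4 and 538), the acyl-CoA synthetase Acsbg1 (133.6 and 138.1, against 575.8 and 592.5), BC064078 (142.6 and 138.1, against 639.6 and 524.6) and Capsl (158 and 181.1, against 657.6 and 615.8) fell by 1.73 to 2.06. Their OKM+GMNN values lay below or near the lower quartile of the arrays.

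**Figure D4:**
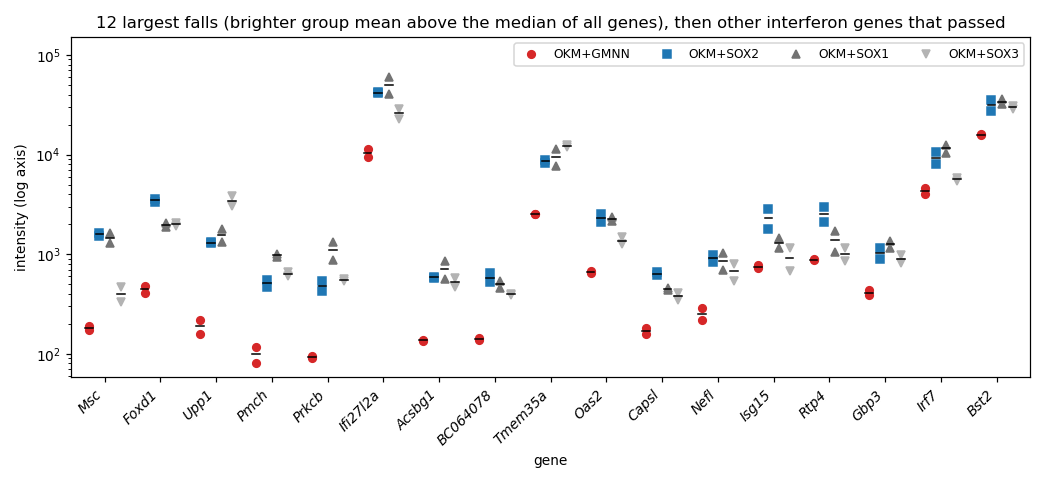
Intensity (log axis) on each array of the 12 largest falls among called genes whose brighter group mean lay above the median of all genes, and then of the other 5 interferon response genes that passed, with the group mean as a bar. Both OKM+GMNN arrays lie below both OKM+SOX2 arrays for every gene shown, and for Isg15 and Rtp4 they overlap the OKM+SOX3 arrays.

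Genes of neural and other lineages were among the falls. Nefl, the light neurofilament chain, had 219.5 and 285.1 with geminin, against 840.1 and 975.9 with SOX2 (log2 difference -1.73), and was the 1 of 21 measured ectoderm and neural genes to pass. Nes, the intermediate filament nestin of neural progenitors, had 232.5 and 279.5, against 664.5 and 567.8 (-1.17, adjusted p = 0.0533), and Sox21 had 449.4 and 290.4, against 977.5 and 930.1 (-1.32, adjusted p = 0.105). The list's median was -0.36. The growth factor pleiotrophin Ptn (4416 and 4694, against 11637 and 11317), the glucose carrier Slc2a3 (470.6 and 475, against 1759 and 1123), the basic amino acid carrier Slc7a3 (353.2 and 370.7, against 1360 and 948.4), the tight junction gene Cldn6 (175.5 and 177.8, against 476.6 and 605.7) and the oocyte gene Ooep (261.3 and 270.2, against 873.5 and 720.5) fell by 1.33 to 1.57. Of cartilage and bone markers, Col2a1, the cartilage collagen (-1.35), and Alpl, the alkaline phosphatase that pluripotent cells also carry (-1.10), fell among 8 measured, and without OKM+SOX2 replicate 1 Col2a1 alone (adjusted p = 0.0658 for Alpl). Adipoq, the fat cell hormone adiponectin (-1.30), and the retinaldehyde dehydrogenase Aldh1a1 (-0.93) fell in their lists. Without that array Cbr3, a carbonyl reductase of the same list as Aldh1a1, also passed, as higher (adjusted p = 0.0146), as did Piwil2, a partner of small RNAs in germ cells (adjusted p = 0.0316), in the germline list of Ooep.

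Shown next are windows of 2 lower genes that hold the letters of the SOX element CATTGT (Pmch) or of the octamer ATGCAAA bound by OCT4 (Avil, 2 copies), in capitals on either strand.
Pmch (chr10:88090822-88091121, plus strand): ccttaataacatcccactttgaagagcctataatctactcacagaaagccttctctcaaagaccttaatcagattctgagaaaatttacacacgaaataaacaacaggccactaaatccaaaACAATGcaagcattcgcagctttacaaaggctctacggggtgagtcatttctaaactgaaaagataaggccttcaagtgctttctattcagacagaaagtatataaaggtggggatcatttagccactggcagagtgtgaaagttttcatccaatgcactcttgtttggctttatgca
Avil (chr10:127000459-127000758, plus strand): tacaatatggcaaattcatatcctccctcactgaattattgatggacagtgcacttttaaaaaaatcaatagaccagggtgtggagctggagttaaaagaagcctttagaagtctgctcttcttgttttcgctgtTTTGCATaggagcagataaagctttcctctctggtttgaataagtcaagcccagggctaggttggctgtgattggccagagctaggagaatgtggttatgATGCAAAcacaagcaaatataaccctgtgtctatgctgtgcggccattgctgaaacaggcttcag
CATTGT stood in 9.38% of windows of the higher genes and 21% of those of the lower genes, beside 9.39% over all, which is 13 of the 62 windows of lower genes. ATGCAAA stood in 6.25% and 16.1%, beside 4.36% over all. The cell-cycle element TTTGAA, a further AT-rich string, stood in 14.6% and 22.6%, beside 14.9%. No window of a lower gene held the E2F element TTGGCGC, which stood in 2.08% of windows of the higher genes and 4.87% over all. The 4 motifs are distinct strings, each was searched on both strands, and no letters outside the window were read. Avil, the actin regulator advillin of sensory neurons, had 369.9 and 392.2 with geminin, against 1232 and 1375 with SOX2 (-1.69).

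For the processes in which geminin itself acts, limma called no gene of the lists examined. Over all genes tested, 1516 of 11304 had an unadjusted p below 0.05 by limma, the share to set beside the counts here and below. Of 22 replication licensing genes none passed, and none had an unadjusted p below 0.05. Cdt1, the licensing factor that geminin binds, had 1479 and 1544 on the OKM+GMNN arrays, against 1324 and 1196 on the OKM+SOX2 arrays (log2 difference 0.26, 95% interval -0.20 to 0.72). Of 24 genes of the G1/S transition none passed, with 1 at an unadjusted p below 0.05, and of 22 of G2/M none passed, with 3. None of 15 p53 and senescence genes passed (3 unadjusted), and none of 11 DNA damage genes (2 unadjusted). Among 27 chromatin partners none passed (3 unadjusted). Smarca4, the SWI/SNF ATPase, had 4295 and 3984, against 3747 and 4376, and Suz12, a Polycomb subunit, had 991.1 and 950.9, against 1613 and 1263 (-0.54, adjusted p = 0.294). Of 27 Hox genes none passed (4 unadjusted), and Hoxa10 came nearest with 418.9 and 395.6, against 990.2 and 770.6 (-1.04, adjusted p = 0.0651). With 2 arrays a group, intervals of single genes such as that of Cdt1 spanned close to 1 log2 unit, and a p above the threshold does not show equal levels.

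The lists of pluripotency and mesendoderm genes held no call by limma. None of 14 measured pluripotency genes passed (4 unadjusted, beside 1516 of all 11304 genes), and their median was -0.33. Esrrb, an orphan nuclear receptor of naive pluripotent cells, had 100.5 and 129.6 with geminin, against 344.2 and 249.6 with SOX2 (log2 difference -1.15, adjusted p = 0.108). Fgf4, a known target of OCT4 and SOX2 together, had 656.4 and 514.2, against 981.6 and 1035 (-0.76, adjusted p = 0.157). Nanog, Lin28a, Sall4 and the Dppa genes listed had no value. Of 18 mesendoderm genes none passed (2 unadjusted), and their median was -0.23. T (brachyury), the T-box factor of the primitive streak, had 597.6 and 588.6, against 1472 and 946.7 (-0.96, adjusted p = 0.139), and Hand1 had 993 and 847.1, against 1827 and 1466 (-0.81, adjusted p = 0.0923). None of 26 fibroblast genes passed (6 unadjusted). In lists of the Wnt pathway (22 genes, 2 unadjusted), TGF-beta and BMP signalling (18, 1 unadjusted), growth factors and receptor tyrosine kinases (22, 4 unadjusted), imprinted genes (17, 5 unadjusted), cholesterol synthesis (15, 1 unadjusted) and the respiratory chain (20, 2 unadjusted), none passed either. Without OKM+SOX2 replicate 1, Id3, a target of BMP signalling, passed as lower (adjusted p = 0.0376) and the imprinted gene Phlda2 as higher (adjusted p = 0.0112).

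**Figure D5:**
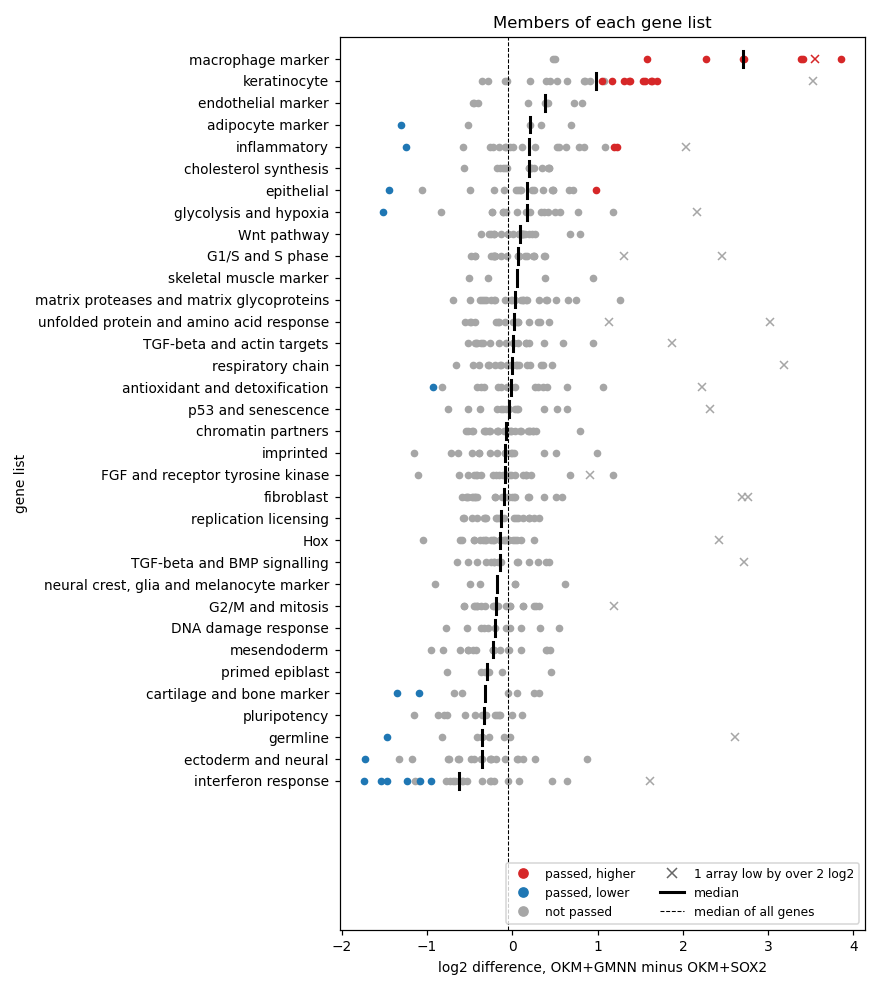
Log2 difference, OKM+GMNN minus OKM+SOX2, of each measured member of the gene lists drawn. Each list's median is a bar and that of all genes a dashed line at -0.05. The introduced factors and the shorter list of keratinocyte markers were not drawn as lists. Macrophage markers (median 2.71) and keratinocyte genes (0.98) lie to the right and interferon response genes (-0.63) to the left, and most crosses, genes with 1 array low by over 2 log2 units, lie far right.

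Other cell types moved less. Of 9 endothelial markers none passed (3 unadjusted, median 0.39), and Pecam1 lay between 9.91 and 20.6 on the 4 arrays, the dimmest end of the scale. None of 4 muscle markers (1 unadjusted) and none of 6 neural crest, glia and melanocyte markers (3 unadjusted) passed. Epithelial genes went both ways, with Krt8, a keratin of simple epithelia, at 12815 and 13648, against 7395 and 6048 (log2 difference 0.98), and Cldn6 lower.

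The arrays of SOX1 and SOX3 were set beside the 2 groups. limma called 194 genes between OKM+GMNN and the mean of OKM+SOX1 and OKM+SOX3 (1.72% of those tested), 101 higher (0.893%) and 93 lower (0.823%) in OKM+GMNN. Between OKM+SOX2 and that mean it called 31 (0.274%), 5 higher (0.0442%) and 26 lower (0.23%). Without OKM+SOX2 replicate 1 the totals were 866 and 25. The contrasts share the SOX1 and SOX3 arrays, so their values are given side by side. Of the 143 genes higher with geminin than with SOX2, the OKM+SOX1 mean lay between the 2 for 131 and the OKM+SOX3 mean for 120. As shares these are 91.6% and 83.9%. For the 85 lower genes the numbers were 58 and 57 (68.2% and 67.1%), beside 35.1% and 25.8% of all genes. Called genes were picked for a wide gap between OKM+GMNN and OKM+SOX2, into which another mean falls more often by construction. The excess over all genes therefore does not by itself place SOX1 and SOX3. The summed macrophage markers were 10610 and 10720 with SOX1 and 12330 and 11680 with SOX3, between the OKM+GMNN and OKM+SOX2 levels. Against the SOX1 and SOX3 mean, the median log2 difference of these markers was 0.74 for OKM+GMNN and -1.75 for OKM+SOX2. Clec10a, for one, averaged 1901 in OKM+SOX1 and 1792 in OKM+SOX3, with a log2 difference of 0.88 for OKM+GMNN (adjusted p = 0.13) and -4.05 for OKM+SOX2 (adjusted p = 0.001). For the keratinocyte list the SOX1 and SOX3 arrays lay nearer to OKM+SOX2, with sums of 68150 and 68580 in OKM+SOX1 and 75220 and 70790 in OKM+SOX3, and medians of 0.76 for OKM+GMNN and -0.22 for OKM+SOX2. Interferon genes had medians of -0.46 for OKM+GMNN and 0.14 for OKM+SOX2. Msc was not uniform, with means of 1469 in OKM+SOX1 and 398.1 in OKM+SOX3.

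Pluripotent lines gave an outside view of the called genes. The 8 arrays of iPSC lines G6Gm, G3 and Dlx3RNAi and ESC line R1 were compared with 2 arrays of uninfected MEF, in another normalization, where 71.1% of 12006 genes were called, 36.3% higher and 34.8% lower in the lines. Of the 99 genes higher with geminin that had a value there, 20.2% passed there and were at least 2-fold higher in the lines, and 10.1% passed and were at least 2-fold lower. Of the 72 genes lower with geminin, 19.4% were higher and 33.3% lower by the same count. Over all genes these shares were 11.2% and 12.8%.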

How the data were processed

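RNA of skin fibroblasts was labelled with Cy5 and hybridised to 1-colour arrays, per the labels' protocols. The deposited values are linear intensity per probe, and no label or header names the software or the normalization behind them. The 49 arrays fell into 5 sets with the same probes lacking a value and near-identical sorted values. The main tests were made within a set only, while the alternatives over all 49 arrays crossed sets. Of 19426 probes, 15539 had 1 gene symbol in the platform annotation and 3887 none. Among probes with a value on all 8 arrays of OKM with GMNN, SOX2, SOX1 or SOX3, a gene took the brightest over these arrays. The same probe served the comparisons within other sets. limma 3.58.1 in R 4.3.3 fitted group means of log2(intensity + 32) over the 8 arrays with an intensity trend, and p-values were two-sided and adjusted by Benjamini-Hochberg over all 11304 genes. The replicate numbers did not pair the samples (correlations of deviations from -0.125 to 0.089). Named genes were the 12 largest rises and falls among called genes whose arrays did not overlap and whose brighter group mean lay above the median, and up to 4 genes per list. Members and lists were chosen with earlier results of these data known. The model was also run on simulated data with known differences. With 2 arrays a group, their number limits the precision. Alternatives were pseudocounts, a filter on dim genes, renormalization, the arrays fitted, the probe rule, arrays left out, a replicate block, array weights and genes with 1 array standing apart left out, the last 2 chosen after seeing the data. Promoter windows came from RefSeq (GRCm38.p6).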

Additional observations from a re-analysis of the deposited data

How the results depend on the processing

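The 228 calls became 213 with a pseudocount of 1 and 236 with a larger one than 32, 185 without dim genes, 226 after a new quantile normalization of the 8 arrays, 230 without the intensity trend, 235 with probe means and 202 with array quality weights. Those weights came out equal within each group, 0.479 for both OKM+SOX2 arrays, so that run could not single out OKM+SOX2 replicate 1. With the replicate block 154 genes passed, of which 151 were among the 228. The larger moves were 84 genes after quantile normalization of all 49 arrays, where 51.2% were higher against 62.7%, 78 with the 4 arrays alone, 791 in a fit over all 49 arrays, and 351 when genes with 1 array standing apart were left out. Leaving out single arrays gave 29 to 1061. Fewer than 11304 genes were tested without dim genes (8478) and after quantile normalization of all 49 arrays (8634). Without genes with 1 array standing apart, 11026 were tested. The causes of the moves in the count were not tested. Against the mean of SOX1 and SOX3, OKM+GMNN had 194 calls, 125 with the replicate block and 866 without OKM+SOX2 replicate 1, and OKM+SOX2 had 31 and, with the block, 12. OKM+EV against MEF2 EV ranged from 0 (1425 unadjusted by limma, without MEF2 EV replicate 1) to 5580 (without OKM+EV replicate 3), and the lines against MEF from 7244 to 8563. Of the 97 named genes 43 passed, and 16 of these passed in every alternative that gave them a value: Clec10a, Marco, C1qa, Pf4, Fcgr3, Csf1r, Sprr2d, Adam8, Nckap1l, Selplg, Fcer1g, Msc, Foxd1, Upp1, Ifi27l2a and Krt14. None of the 43 reversed under any of 16 alternatives. Only the renormalizations and the probe means could have reversed one, since the groups did not overlap for any of them. The 97 genes are those of the naming rule given above. Other called genes in the text were not part of this check. The number of arrays, and no given background level, limit what dim genes can show.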
